A study of Mus musculus with 24 samples.

Results

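The genes described here encode the receptors through which cells sense glutamate and GABA, and they were followed in neural stem and progenitor cells (NSPCs) of mice that carry or lack Kat6a, a lysine acetyltransferase of histone H3. Members were matched by gene symbol in the deposited count files (Gria, Grik, Grid, Grin, Grm, Gabr and Gabbr). The match uses no measured value, but these families were chosen with earlier results of these data known. Of 26411 genes listed, 47 matched: 4 AMPA, 5 kainate, 2 delta, 7 NMDA, 8 metabotropic glutamate (mGlu), 19 GABAA and 2 GABAB receptor genes. NSPCs came from the dorsal telencephalon of C57BL/6 embryos at E12.5 (days of embryonic development) and were expanded in neurosphere culture and frozen before use. Kat6a+/+, Kat6a+/- and Kat6a-/- cells, the last homozygous for a Kat6a allele in which a deletion of exons brings a stop codon into the sequence of the catalytic domain, were grown for 3 days with FGF2 and EGF (proliferating) or for 3 days on poly-ornithine and laminin in 1% serum (differentiating). There were 4 libraries for each of the 3 genotypes in each condition, 24 in all, each from the culture of 1 embryo, and by the library names 6 embryos gave a library in both conditions. The 12 proliferating libraries came from 5 litters and the 12 differentiating ones from 7, as labelled. Littermates also stood within groups: Kat6a-/- replicates 1 and 2 share a litter in each condition, as do proliferating Kat6a+/- replicates 2 and 3. The allele is inherited, so it was present in every cell from the start. The paper reports that proliferating Kat6a+/+ cells floated as spheres, while Kat6a+/- colonies were smaller and tended to attach. Kat6a-/- cells gave few floating colonies, mostly attached and proliferated more slowly. Growth form thus went with genotype, and its part in the receptor results was not tested. Replicate numbers were not used to pair libraries of different genotypes, of which some with the same number share a litter. Between the conditions, 7 of the 12 same-numbered pairs of one genotype share a litter, and 5 of these share an embryo.

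Glutamate and GABA are the main excitatory and inhibitory transmitters of the brain. AMPA, kainate and NMDA receptors are glutamate-gated cation channels assembled from several subunits, mGlu receptors act through G proteins, GABAA receptors are chloride channels, and GABAB receptors act through G proteins as a dimer of Gabbr1 and Gabbr2. In the embryonic telencephalon these receptors are made before synapses exist, by progenitors as well as by young neurons, and their activation by ambient transmitter is known to affect proliferation and migration.

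Library totals ranged from 7826660 to 40838203 counts. Kat6a itself was at 378 to 405 CPM (counts-per-million units) in proliferating Kat6a+/+ cells and 344 to 397 CPM in Kat6a-/- cells, and at 236 to 290.2 against 160.4 to 249.8 CPM in differentiating cells (limma log2 fold changes -0.13, false discovery rate (FDR) = 0.100, and -0.69, FDR = 3.33e-05). Counts over the whole gene do not isolate the deleted exons, so these values do not check the genotype labels. All 8 radial glia and neural stem cell markers (Sox2, Pax6, Nes and others) passed the filter on low counts in both conditions, with a summed level of 7739.9 to 8434 CPM in proliferating and 7150.0 to 9088 CPM in differentiating Kat6a+/+ cells. Erythroid markers were at 0 in all but 1 library. Reads of Y-linked genes exceeded 100 CPM in 3 of 4 Kat6a+/+, 1 of 4 Kat6a+/- and 1 of 4 Kat6a-/- libraries of each condition, so that genotype and sex were partly confounded.

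Of the 47 receptor genes, 45 had at least 1 count and only Gabra6 and Gabrp, which encode subunits known from cerebellar granule cells and from tissues outside the brain, had none in any library. A gene was tested where enough libraries reached about 10 counts, which left 24 members in proliferating and 30 in differentiating NSPCs. All 4 AMPA and both GABAB genes were tested in both conditions. Kainate genes passed in 4 and 5 of 5 cases, NMDA genes in 6 and 7 of 7, mGlu genes in 3 and 4 of 8, and GABAA genes in 4 and 6 of 19. The 6 tested only in differentiating cells included Gabrb2, Gabre, Grik1 and Grin3b, and 17 were tested in neither, among them 13 of the 19 GABAA genes and all of Grm2, Grm6, Grm7 and Grm8. Untested members did not exceed 2.30 CPM in any proliferating or 1.20 CPM in any differentiating library, and genotype differences in them are not reported.

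Levels of different genes were compared as CPM per kilobase of the gene length in the files (RPKM). In proliferating Kat6a+/+ cells high means, in descending order, were those of Grm5 at 25.8 ± 3.67 RPKM (mean ± SD, n = 4 here and below), Grik5 at 23.2 ± 1.94, Gabbr1 at 15.2 ± 2.62, Gria2 at 14.3 ± 3.94, Gria4 at 13.5 ± 2.82, Gria3 at 12.49 ± 2.43 and Grin3a at 8.52 ± 1.75. Neighbours in this order differed by less than the larger of their SDs, except between Grik5 and Gabbr1 and between Gria3 and Grin3a. The NMDA family had an uneven make-up, because Grin1, which encodes the subunit that every NMDA channel requires, was at 0.793 ± 0.117 RPKM, while Grin3a, a glycine-binding subunit that lowers calcium flow through the channel, made up 82.6% of the family's summed RPKM. Grik5, a subunit that forms channels only together with Grik1, Grik2 or Grik3, made up 89.7% of the kainate sum. Its exons share 145 bases with those of Zfp574 on the other strand. Among other members, Grin3b (574 counts in all libraries) shares 1059 exon bases with opposite-strand Tmem259 (47890 counts). Gabrb1 (172 counts) shares 396 with opposite-strand Commd8 (15855 counts). The strand setting of the counting is not given in the sources used here.

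Between the conditions, 20 of the 32 members tested in Kat6a+/+ cells were called at an FDR below 0.05, 13 higher and 7 lower in differentiating cells, a smaller share than the 72.9% of all genes tested (36.7% higher and 36.2% lower). This was a joint limma fit of all 24 libraries, whose filter also kept Gabrb1 and Gabrg3, both called lower in differentiating cells (log2 fold changes -1.29, FDR = 0.0376, and -2.23, FDR = 0.000771). At the cut of the differentiating fit, 0.571 CPM, 1 differentiating library passed for Gabrb1 and 0 for Gabrg3. Both genes thus entered the joint fit mainly through proliferating libraries, so their lower calls were favoured in advance. The exon overlap of Gabrb1 with Commd8, given above, applies to its call. The joint fit grouped libraries by litter and did not pair the libraries of 1 embryo. RNA was extracted with a different kit in each condition, and the kit and the condition cannot be told apart. Because these are bulk RNA libraries, a change in the number of cells of a type and a change in RNA per cell cannot be told apart here or below. The mGlu genes moved both ways. Grm5, which couples to Gq, fell from 202, 187, 257 and 232 CPM in the 4 proliferating libraries to 26.1, 22.1, 20.1 and 22.9 CPM (log2 fold change -3.27, SE 0.12, FDR = 7.89e-15). Grm4, a receptor of the Gi-coupled group, went the other way, from 0.617, 0.602, 0 and 1.03 to 22.6, 32.6, 28.2 and 38.4 CPM (log2 fold change 6.11, SE 1.77, FDR = 0.00397). Neither pair of groups overlapped. Gria1 rose from counts of 3, 0, 2 and 1 in the 4 proliferating libraries to 26.6, 33.6, 25.5 and 41.4 CPM, Grik4 from 1.81 ± 0.357 to 15.1 ± 5.68 CPM and Grin2b from 1.32 ± 0.672 to 12.2 ± 3.35 CPM, whereas Gabra2 fell from 19.1 ± 2.04 to 2.16 ± 0.459 CPM. Gria2, Gria3 and Gria4 were not called, with log2 differences of 0.42 (95% interval -0.23 to 1.06), 0.36 (-0.18 to 0.89) and 0.25 (-0.26 to 0.76).

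**Figure D1:**
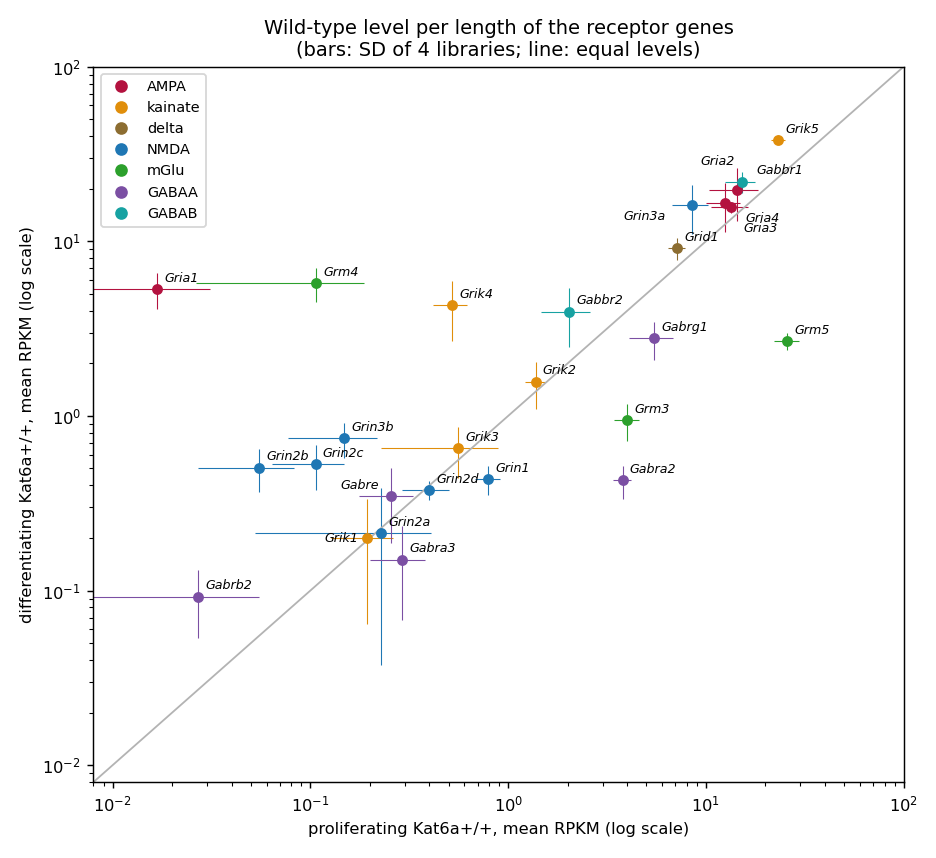
Mean level per length (RPKM, log scales) of 27 receptor genes tested in at least 1 condition, in proliferating (x axis) and differentiating (y axis) Kat6a+/+ NSPCs, coloured by family, with bars for the SD of 4 libraries and a line for equal levels; where a bar would reach below 0 it is cut short. Gria1, Grm4 and Grik4 lie far above the line, Grm5, Gabra2 and Grm3 below it, and Gria2, Gria3 and Gria4 lie together near the upper end.

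The comparison of Kat6a-/- with Kat6a+/+ cells asks what loss of both Kat6a copies does to these genes. In proliferating NSPCs, 13 of the 24 members tested were called by limma-voom, 12 higher and 1 lower in Kat6a-/- cells, where 30.0% of all genes tested were called (16.2% higher and 13.8% lower). Called higher were 4 of 4 AMPA, 3 of 3 tested mGlu, 1 of 1 tested delta, 2 of 6 NMDA, 1 of 4 kainate and 1 of 4 GABAA genes, and neither GABAB gene was called. The median log2 fold change of the 24 was 0.63, beside -0.00451 over all genes. In 13 members all 4 Kat6a-/- libraries lay above all 4 Kat6a+/+ libraries, which held for 15.9% of all genes tested, and in 1 (Grik4) they lay below, as for 14.9%. Of the members called higher, 3 (Gria1, Grin2c and Grm4) passed the count filter only through the Kat6a-/- libraries and so had to differ once tested.

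**Figure D2:**
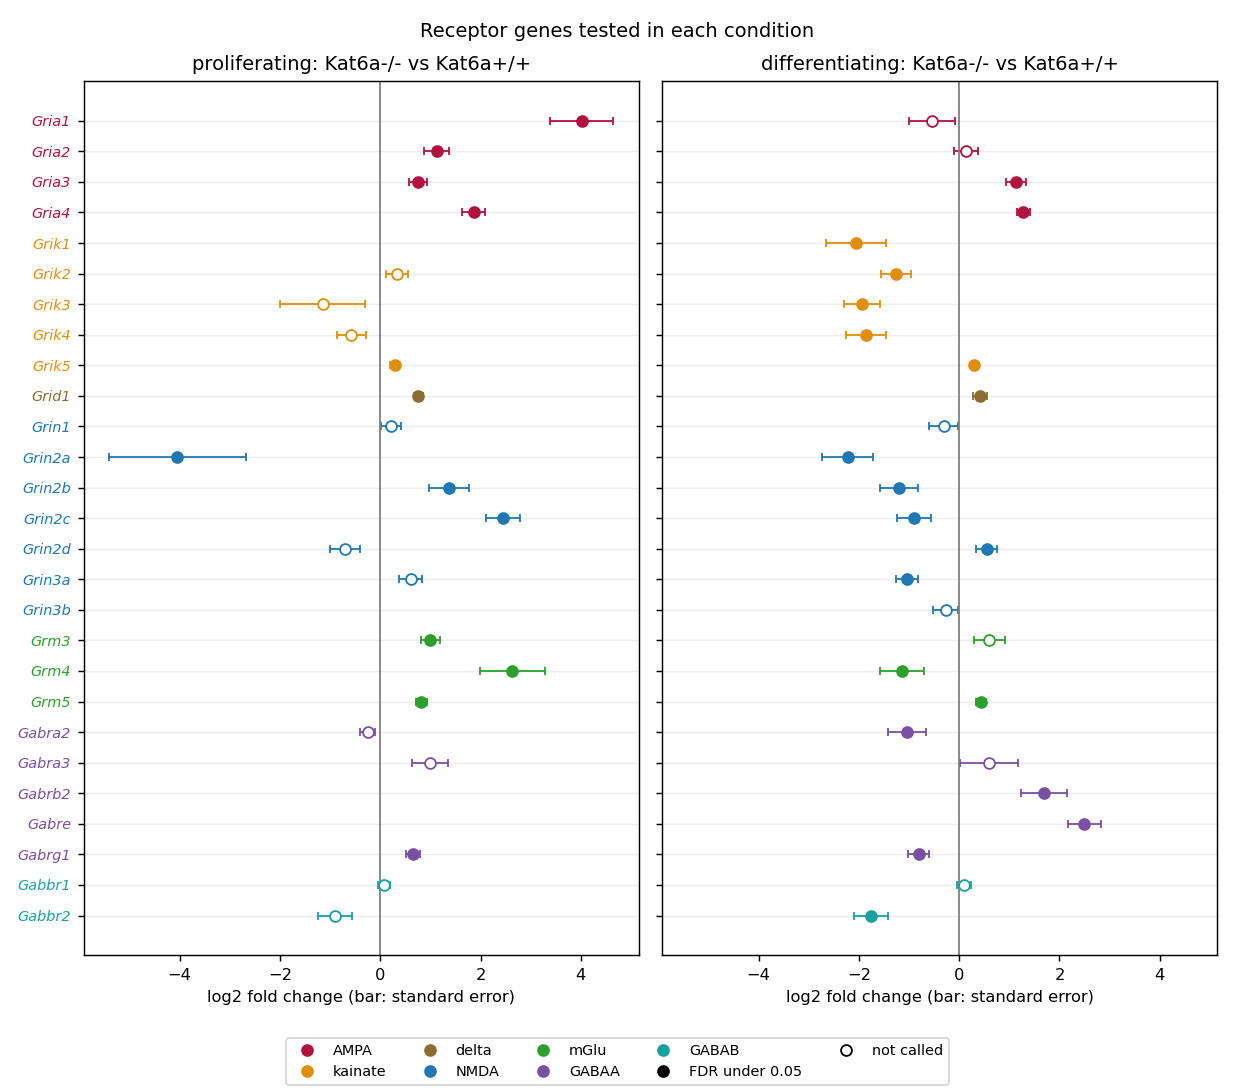
Log2 fold change of Kat6a-/- against Kat6a+/+ NSPCs (x axis, both panels on 1 scale) for those of 27 receptor genes that were tested in proliferating (left) and differentiating (right) cells, coloured by family; bars are standard errors and filled points have an FDR below 0.05. AMPA, delta and mGlu genes lie right of 0 in proliferating cells, while in differentiating cells most kainate and NMDA genes lie left of 0.

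All 4 AMPA receptor genes were called higher in proliferating Kat6a-/- cells. Gria4 (GluA4), located at chr9:4417604-4796326, minus strand of GRCm39 in the GENCODE annotation, was at 67.3, 75.8, 107 and 80.4 CPM in the 4 Kat6a+/+ libraries and at 324, 305, 242 and 461 CPM in the 4 Kat6a-/- libraries. The lowest Kat6a-/- value exceeded the highest Kat6a+/+ value, and the difference passed the test (log2 fold change 1.86, SE 0.23, FDR = 0.000185). Gria2 (GluA2; chr3:80588757-80710538, minus strand), the subunit that makes AMPA channels impermeable to calcium once its transcript is edited, was at 125, 149.6, 226 and 145 CPM in Kat6a+/+ against 378, 341, 312 and 515 CPM in Kat6a-/- cells. Its groups did not overlap either (log2 fold change 1.12, SE 0.25, FDR = 0.00662). X-linked Gria3 (GluA3; chrX:40489476-40767490, plus strand) was at 72.1, 61.8, 89.6 and 59.4 CPM in Kat6a+/+ against 133, 120.3, 109 and 127 CPM in Kat6a-/- cells, again without overlap (log2 fold change 0.75, SE 0.18, FDR = 0.00764). The part of the uneven sex of the groups in the values of X-linked genes was not tested. Gria3 was the AMPA gene that lost its call with litter as a fixed term (FDR = 0.0923). Gria1 (GluA1; chr11:56902153-57221080, plus strand) was near the limit of counting, with 3, 0, 2 and 1 counts in the Kat6a+/+ and 29, 14, 12 and 24 counts in the Kat6a-/- libraries. The ratio of the groups' pooled counts, each over the group's pooled library totals, was 28.1. Its exact 95% interval of 12.4 to 79.0 covers counting error only. The test called Gria1 (FDR = 0.000634), which passed the count filter only through its Kat6a-/- libraries.

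Summed over the family, AMPA receptor RPKM was 34.8, 36.5, 53.4 and 36.4 in the Kat6a+/+ libraries and 110.2, 101, 86.5 and 144 in the Kat6a-/- libraries, means of 40.3 ± 8.78 and 110.4 ± 24.2 with no overlap. The shares of the subunits in this sum, which were not tested, moved apart by more than their SDs for Gria4 and Gria3. Gria4 held 33.5% ± 1.89 of it in Kat6a+/+ and 48.6% ± 2.83 in Kat6a-/- cells, and Gria3 held 31.2% ± 3.60 and 20.1% ± 2.99. Markers of astrocytes moved with these genes: 5 of the 7 tested of 8 listed were called higher and none lower in proliferating Kat6a-/- cells, their summed level was 909 to 1150.3 CPM in Kat6a+/+, 1167 to 1573 CPM in Kat6a+/- and 1576 to 2324 CPM in Kat6a-/- libraries, and none of the 8 was at 0 throughout. Markers of the ventral telencephalon and interneurons were called higher in 2 of 2 tested of 9 listed, at 49.3 to 79.1 CPM in Kat6a+/+ and 90.6 to 107 CPM in Kat6a-/- libraries, with Nkx2-1, Gad2 at 0. Of 10 neuronal markers, 8 were tested, 1 was called higher and 3 lower, and the summed levels of 948 to 1236 and 1198 to 1365 CPM overlapped. Summed microglial markers were at 1.23 to 1.40 CPM in Kat6a+/+ and 6.53 to 8.52 CPM in Kat6a-/- libraries without overlap, nearly all of it P2ry12, the 1 tested of 6 listed, which was called higher (log2 fold change 2.51), with C1qa and Cx3cr1 at 0. Radial glia markers were 2 higher and 2 lower of 8 tested and oligodendrocyte lineage markers 1 higher and 0 lower of 6 tested, with overlapping sums. The part of these cell-type differences in the receptor results was not tested.

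**Figure D3:**
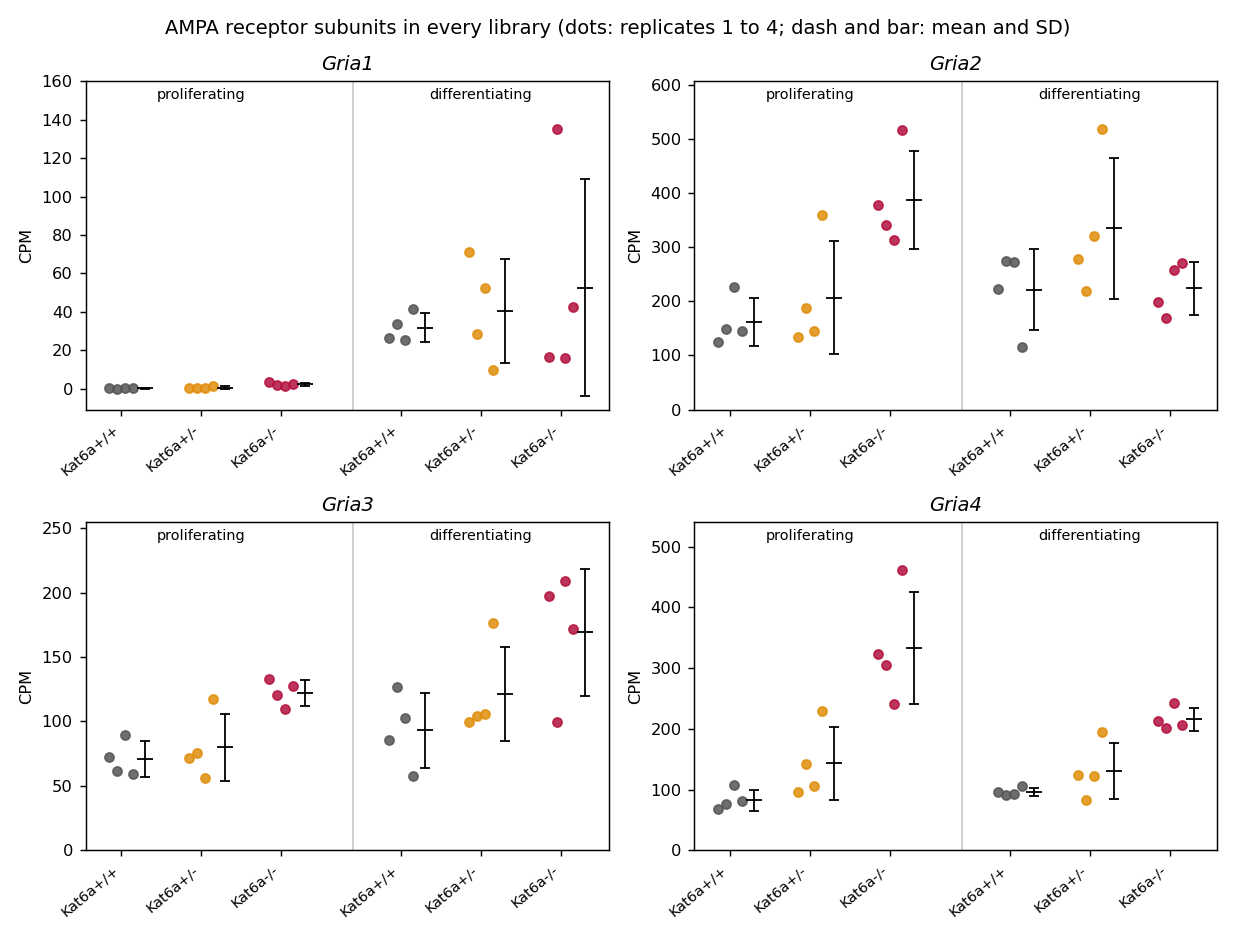
CPM of Gria1, Gria2, Gria3 and Gria4 in every library of the 6 groups; dots are replicates 1 to 4 from left to right, and the dash with its bar is the mean and SD. In proliferating cells the Kat6a-/- dots sit above all Kat6a+/+ dots in each panel, and in differentiating cells this holds for Gria4, at 201 to 243 against 90.7 to 106 CPM.

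The RefSeq promoter table (GRCm38.p6) held windows for 32 of the 47 members, Gria2 and Gria4 among them. The 250 bases before their start sites are given because Gria2 and Gria4 were the 2 most abundant AMPA genes of proliferating Kat6a-/- cells, together with those of Grin2c, whose difference between genotypes depended on the condition. Each runs 5′ to 3′ on the gene's own strand, with every CG dinucleotide, the site of DNA methylation in mammals, in capitals. The Gria2 window is chr3:80802836-80803085, that of Gria4 is chr9:4796235-4796484 and that of Grin2c is chr11:115267244-115267493, all on the minus strand.
Gria2: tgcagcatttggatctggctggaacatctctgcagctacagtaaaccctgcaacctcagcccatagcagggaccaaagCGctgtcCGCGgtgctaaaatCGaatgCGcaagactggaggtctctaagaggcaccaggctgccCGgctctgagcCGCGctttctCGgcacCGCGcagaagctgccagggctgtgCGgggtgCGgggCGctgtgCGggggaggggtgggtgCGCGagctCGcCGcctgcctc
Gria4: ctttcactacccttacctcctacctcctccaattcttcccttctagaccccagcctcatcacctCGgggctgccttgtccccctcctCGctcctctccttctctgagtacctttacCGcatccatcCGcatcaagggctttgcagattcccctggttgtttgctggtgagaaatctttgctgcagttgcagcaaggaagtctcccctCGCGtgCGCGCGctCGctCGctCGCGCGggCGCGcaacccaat
Grin2c: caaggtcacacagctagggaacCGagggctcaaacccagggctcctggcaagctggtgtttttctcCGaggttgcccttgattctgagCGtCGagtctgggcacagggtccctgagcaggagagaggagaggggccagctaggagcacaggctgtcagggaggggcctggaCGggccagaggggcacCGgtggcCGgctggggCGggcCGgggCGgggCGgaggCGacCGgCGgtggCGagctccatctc
They held 19, 16 and 15 CG dinucleotides, beside a median of 9 over the 39 windows of matched members and 6 over all 32851 windows of the table. At least 1 CG was present in 92.1% of all windows. The GC box GGGCGG, searched on both strands, was found in the Grin2c window and not in those of Gria2 or Gria4, in 18 of the 39 windows of members and in 32.7% of all windows.

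The mGlu and delta genes tested were all higher in proliferating Kat6a-/- cells. Grm5 was at 202, 187, 257 and 232 CPM in Kat6a+/+ against 467, 387, 372 and 376 CPM in Kat6a-/- libraries (log2 fold change 0.82, SE 0.11, FDR = 0.000173). Grm3, a Gi-coupled receptor of glia and neurons, was at 17.6, 14.8, 19.7 and 14.8 and 32.5, 33.2, 37.8 and 36.7 CPM (log2 fold change 1.00, SE 0.19, FDR = 0.00202). The groups of both genes were apart. Grm4 was far less abundant, at 0.617, 0.602, 0 and 1.03 CPM in Kat6a+/+ against 2.31, 2.49, 1.55 and 6.27 CPM in Kat6a-/- libraries (log2 fold change 2.63, SE 0.65, FDR = 0.00956), and its lowest Kat6a-/- library exceeded its highest Kat6a+/+ library. Grid1, an ionotropic-like receptor that binds glycine and D-serine and organises synapses, had the smallest FDR of all members: its Kat6a+/+ libraries were at 23.2, 23.8, 22.9 and 28.0 CPM and its Kat6a-/- libraries at 43.0, 37.6, 37.2 and 43.8 CPM (log2 fold change 0.76, SE 0.09, FDR = 8.94e-05). Grm5, Grm3 and Grid1 kept their calls in each of the 20 alternative fits. So did Grm4, but it passed the count filter only through its Kat6a-/- libraries, so its call was favoured in advance.

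Of the NMDA genes, Grin2c and Grin2b, which encode glutamate-binding subunits, were called higher in proliferating Kat6a-/- cells. Grin2c was at 0.741, 0.481, 0.600 and 0.257 CPM in Kat6a+/+ against 4.15, 3.41, 1.99 and 2.67 CPM in Kat6a-/- libraries (log2 fold change 2.45, SE 0.34, FDR = 0.000276). Grin2b was at 1.51, 2.17, 0.600 and 1.03 and 3.00, 2.75, 3.10 and 6.06 CPM (log2 fold change 1.37, SE 0.40, FDR = 0.0197), and it lost the call without Kat6a+/+ replicate 1, without Kat6a-/- replicate 4 and with litter as a fixed term. Both pairs of groups were apart, at levels of a few CPM. Grin2c passed the count filter only through its Kat6a-/- libraries, so its call was favoured in advance. Grin2a, also a glutamate-binding subunit, was the member called lower (log2 fold change -4.05, SE 1.36, FDR = 0.0416), but its Kat6a+/+ libraries ranged from 0.300 to 6.12 CPM and overlapped the Kat6a-/- range of 0 to 0.461 CPM, and 12 of 20 alternative fits did not call it. Grin2a also passed the count filter only with its Kat6a+/+ libraries, and no Kat6a-/- library reached the cut. Grin3a (log2 fold change 0.61, FDR = 0.0599), Grin1 (0.21, FDR = 0.450) and Grin2d (-0.71, FDR = 0.0902) did not pass the test. Among kainate genes only Grik5 was called, at 110.4, 113, 94.7 and 114 CPM in Kat6a+/+ against 133, 121, 117 and 161 CPM in Kat6a-/- libraries (log2 fold change 0.29, SE 0.10, FDR = 0.0367), a small difference that 7 alternative fits did not call. Grik4 lay lower in all 4 Kat6a-/- libraries (1.15 ± 0.284 against 1.81 ± 0.357 CPM) without passing the test (FDR = 0.141).

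Of the 6 GABA receptor genes tested in proliferating cells, 1 was called. Gabrg1, a gamma subunit of GABAA receptors known from glia, was at 32.3, 32.8, 53.9 and 42.1 CPM in Kat6a+/+ against 74.5, 63.8, 65.2 and 54.2 CPM in Kat6a-/- libraries, where the lowest Kat6a-/- value stood just above the highest Kat6a+/+ value (log2 fold change 0.65, SE 0.14, FDR = 0.00511). Gabra2 was at 19.1 ± 2.04 and 16.4 ± 3.96 CPM (log2 difference -0.25, 95% interval -0.57 to 0.07), and Gabra3 missed the threshold (FDR = 0.0543) though its 4 Kat6a-/- libraries lay above the Kat6a+/+ ones. Gabbr1 differed by 0.07 on the log2 scale (-0.18 to 0.33). The summed RPKM of the GABAA family, 19.6 ± 1.43 in Kat6a+/+ and 21.5 ± 0.840 in Kat6a-/- cells, and of the GABAB family, 17.2 ± 3.16 and 16.8 ± 2.37, overlapped between the genotypes.

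Against Kat6a+/- cells, 9 members were called in proliferating Kat6a-/- cells, all of them higher, beside 14.8% of all genes tested (8.47% higher): Gria1, Gria2, Gria3, Gria4, Grid1, Grin2c, Grm5, Grm3 and Grik2. Of these, Gria1 and Grin2c passed the count filter only through the Kat6a-/- libraries, so their calls were favoured in advance. Gria4, for example, was at 143 ± 60.5 CPM in Kat6a+/- and 333 ± 92.4 CPM in Kat6a-/- cells (log2 fold change 1.25, SE 0.22, FDR = 0.00418). The count was 5 without Kat6a-/- replicate 4 (5.64% of all genes) and 5 without Kat6a+/- replicate 1 (6.48%).

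In differentiating NSPCs, 21 of the 30 members tested were called between Kat6a-/- and Kat6a+/+ cells, 9 higher and 12 lower, where 54.4% of all genes tested were called (26.7% higher and 27.7% lower). This comparison used limma-trend without a term for litter and with a quality weight for each library, so the fold changes are differences of weighted means. Replicate 3 carried 69.0% of the weight of the Kat6a-/- group and replicate 2 carried 4.22%. The count rested on these weights and on 2 libraries. With equal weights 9 members were called, 6 higher and 3 lower (23.2% of all genes), and with litter as a fixed term 2 were, 1 higher and 1 lower (13.4%). The balance also turned to higher with edgeR, at 8 higher and 3 lower (24.3%), and with DESeq2, at 8 higher and 4 lower (30.6%). The count was 1 without Kat6a-/- replicate 1 (9.01%) and 1 without Kat6a-/- replicate 3 (6.99%), Gria4 each time. Scaling by library totals, under which the median gene stood at -0.17 rather than -0.02 on the log2 scale, called 6 members higher and 13 lower (62.3%). All 4 Kat6a-/- libraries lay above all 4 Kat6a+/+ libraries for 4 of 30 members (Gria4, Grik5, Grid1 and Grm5), as for 12.2% of all genes tested, and below them for 3 (Grin2a, Gabbr2 and Grik3), as for 14.7%.

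The 4 differentiating Kat6a-/- libraries differed in their cell-type markers from Kat6a+/+ libraries and among themselves. Summed mesenchymal and meningeal markers were at 278, 42.8, 259 and 178 CPM in replicates 1 to 4 and at 32.6 to 65.7 CPM in Kat6a+/+ libraries, with all 4 tested of 8 listed called higher. Summed astrocyte markers were at 1553, 7567, 1715 and 3505 CPM, against 1805 to 2517 CPM in Kat6a+/+ libraries, with 1 of 8 called higher and 2 lower. Markers of the ventral telencephalon and interneurons (Dlx genes, Gad1 and others) were at 32.1, 84.7, 52.8 and 93.4 CPM, below the Kat6a+/+ range of 148 to 250.4 CPM, with 5 of 6 tested called lower and Nkx2-1 at 0 throughout. Neuronal markers summed to 473 to 775 CPM in Kat6a-/- and 549 to 745 CPM in Kat6a+/+ libraries, with 1 of 9 tested called higher and 5 lower. Radial glia and neural stem cell markers summed to 9295 to 13422 CPM in Kat6a-/- libraries, above the Kat6a+/+ range given earlier, although 3 higher and 4 lower of 8 tested were called. Oligodendrocyte lineage markers were at 689 to 1223 CPM in Kat6a-/- and 1193 to 1414 CPM in Kat6a+/+ libraries, with 1 higher and 4 lower of 6 tested. Endothelial markers were at 9.59 to 36.6 CPM in Kat6a-/- and 46.0 to 72.4 CPM in Kat6a+/+ libraries without overlap, nearly all of it Kdr, the 1 tested of 4 listed, which was called lower, with Cldn5 at 0. The part of these markers in the receptor differences was not tested.

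**Figure D4:**
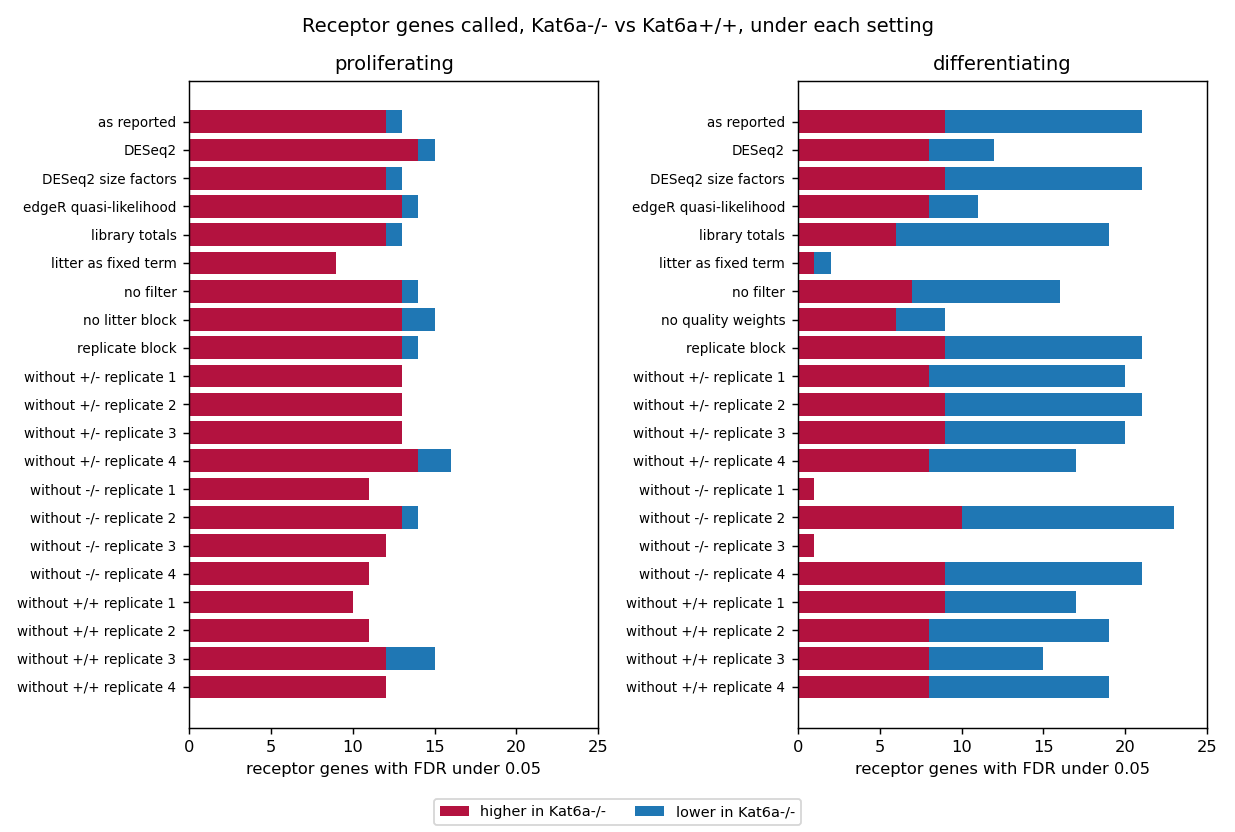
Number of receptor genes with an FDR below 0.05 in Kat6a-/- against Kat6a+/+ cells (x axis) under the fit as reported and each of 20 alternatives (rows), higher in red and lower in blue, for proliferating (left) and differentiating (right) cells. The left panel stays between 9 and 16, while the right panel runs from 1 without Kat6a-/- replicate 1 or 3 to 23 without Kat6a-/- replicate 2.

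Gria4 was the member that every one of the 20 alternative fits called in differentiating cells. It was at 95.7, 90.7, 92.6 and 106 CPM in the Kat6a+/+ and 213, 201, 243 and 206 CPM in the Kat6a-/- libraries, with the lowest Kat6a-/- value above the highest Kat6a+/+ value (log2 fold change 1.28, SE 0.13, FDR = 1.19e-05), and its estimates ranged from 1.11 to 1.33. Gria3 was at 85.5, 127, 103 and 57.8 CPM in Kat6a+/+ against 197, 99.3, 209 and 172 CPM in Kat6a-/- libraries, where Kat6a-/- replicate 2 fell inside the Kat6a+/+ range (log2 fold change 1.13, SE 0.20, FDR = 0.000462). Without Kat6a-/- replicate 3 the Gria3 estimate was 0.56 (FDR = 0.476). Gria2 (log2 difference 0.13, 95% interval -0.39 to 0.65) and Gria1 (-0.55, -1.54 to 0.44) were not called. Gria1 was at 16.3, 135, 16.1 and 42.6 CPM in the Kat6a-/- libraries and its estimate changed sign with equal weights (0.17). The summed AMPA level per length was 54.9, 67.0, 61.7 and 44.7 RPKM in Kat6a+/+ and 89.8, 87.8, 102 and 94.9 RPKM in Kat6a-/- libraries, without overlap.

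Of the 5 kainate genes, 1 was called higher and 4 lower in differentiating Kat6a-/- cells. Grik5 was at 175, 193, 173 and 169 CPM in Kat6a+/+ against 211, 201, 214 and 233 CPM in Kat6a-/- libraries, all Kat6a-/- values above all Kat6a+/+ values (log2 fold change 0.29, SE 0.06, FDR = 0.00159). Grik3, a subunit that can form channels alone, was at 8.44, 4.22, 6.11 and 4.71 and 2.34, 2.09, 1.32 and 3.14 CPM, all Kat6a-/- values below (log2 fold change -1.93, SE 0.36, FDR = 0.000672). It lost the call without Kat6a-/- replicate 1 or 3. Grik4, which like Grik5 needs a partner subunit, was at 21.3, 10.0, 18.5 and 10.5 CPM in Kat6a+/+ against 2.34, 17.3, 4.27 and 14.1 CPM in Kat6a-/- libraries (log2 fold change -1.86, SE 0.40, FDR = 0.00206), and Grik2 was at 17.8, 11.95, 23.7 and 14.2 and 4.00, 14.4, 7.45 and 18.7 CPM (log2 fold change -1.26, SE 0.30, FDR = 0.00348). For both, Kat6a-/- replicates 2 and 4 stood inside the Kat6a+/+ range and replicates 1 and 3 below it. With equal weights neither was called (FDR = 0.239 for Grik4 and 0.227 for Grik2). Grik1 was also called lower, at no more than 1.44 CPM in any Kat6a+/+ library.

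NMDA genes were mostly lower in differentiating Kat6a-/- cells, with 4 called lower and 1 higher of 7. Grin2a was at 1.70, 2.33, 1.83 and 7.37 CPM in Kat6a+/+ against 0.207, 0.262, 0.541 and 0.0642 CPM in Kat6a-/- libraries (log2 fold change -2.22, SE 0.51, FDR = 0.00282). The groups did not overlap, and Kat6a+/+ replicate 4 was far above the others. The call held in 17 of 20 alternative fits, with equal weights among them (log2 fold change -3.04, FDR = 0.00404). Grin2a passed the count filter only with its Kat6a+/+ libraries, and no Kat6a-/- library reached the cut, so a lower Kat6a-/- level was favoured in advance. Grin3a was at 139.7, 100.2, 170.1 and 84.2 CPM in Kat6a+/+ against 73.1, 88.1, 62.5 and 67.2 CPM in Kat6a-/- libraries (log2 fold change -1.04, SE 0.22, FDR = 0.00187), overlapping at Kat6a+/+ replicate 4 and Kat6a-/- replicate 2, and equal weights left it short of the threshold (FDR = 0.0826). Grin2b, Grin2c and Grin2d, among them the 1 gene called higher, were called with FDR between 0.0176 and 0.0409, and 8 to 13 of the 20 alternative fits did not call them. The whole family summed to 18.8 ± 5.14 RPKM in Kat6a+/+ and 11.7 ± 1.39 RPKM in Kat6a-/- cells, with overlap.

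Grm5 was again higher, at 26.1, 22.1, 20.1 and 22.9 CPM in Kat6a+/+ against 28.2, 37.9, 31.5 and 33.0 CPM in Kat6a-/- libraries without overlap (log2 fold change 0.44, SE 0.10, FDR = 0.00289; with equal weights 0.51, FDR = 0.00676). Grid1 was at 31.2 ± 4.58 CPM in Kat6a+/+ and 45.1 ± 5.97 CPM in Kat6a-/- cells, again without overlap (FDR = 0.0214). Grm4 was called lower (FDR = 0.0413) with Kat6a-/- libraries at 9.86, 56.0, 9.97 and 38.4 CPM on both sides of the Kat6a+/+ range of 22.6 to 38.4 CPM, and its estimate was 0.20 without Kat6a-/- replicate 3.

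Among GABA receptor genes of differentiating cells, Gabbr2, the G protein-coupling subunit of the GABAB dimer, was lower in every Kat6a-/- library, at 15.8, 27.2, 14.4 and 30.9 CPM in Kat6a+/+ against 8.48, 10.6, 4.15 and 7.31 CPM in Kat6a-/- cells (log2 fold change -1.76, SE 0.33, FDR = 0.000861). The call held with equal weights (FDR = 0.0268) but not without Kat6a-/- replicate 1 or 3. Its partner Gabbr1, the subunit that binds GABA, differed by 0.10 on the log2 scale (95% interval -0.20 to 0.41), so that Gabbr2 held 15.0% ± 3.77 of the GABAB sum in Kat6a+/+ and 5.43% ± 2.14 in Kat6a-/- cells. Gabre, the X-linked epsilon subunit of GABAA receptors, was at 0.712, 1.62, 0.867 and 0.666 CPM in Kat6a+/+ against 4.62, 1.05, 6.31 and 2.89 CPM in Kat6a-/- libraries, of which replicate 2 lay within the Kat6a+/+ range (log2 fold change 2.50, SE 0.33, FDR = 6.36e-05). Gabrb2 was called higher, Gabra2 and Gabrg1 lower, with FDR from 0.00609 to 0.0327, and the ranges of all 3 overlapped between genotypes. Against Kat6a+/- cells, 10 members were called in differentiating Kat6a-/- cells, 4 higher and 6 lower, beside 37.5% of all genes (19.1% higher and 18.5% lower). The count was 3 without Kat6a+/- replicate 1 (25.9% of all genes) and 6 without Kat6a+/- replicate 4 (30.7%). It was 0 without Kat6a-/- replicate 1 (2.57%) and 0 without Kat6a-/- replicate 3 (1.81%), where an unadjusted p below 0.05 was seen in 4 members (14.7% of all genes) and 3 members (13.2%).

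The joint fit also tested whether the Kat6a-/- difference itself depended on the condition. It called 2 of 32 members, beside 13.9% of all genes tested (7.58% lower), both of them NMDA genes, both lower and both kept in each of 32 alternative fits. The count was 6 without differentiating Kat6a-/- replicate 2, beside 3275 of 13678 genes tested. It was 4 without proliferating Kat6a+/- replicate 4 (2024 of 13741 genes) and 4 without proliferating Kat6a+/+ replicate 3 (2029 of 13754 genes). Grin2c (GRCm39 chr11:115139992-115158525, minus strand) was at 0.520 ± 0.205 CPM in Kat6a+/+ and 3.06 ± 0.932 CPM in Kat6a-/- cells when proliferating, and at 3.51, 2.54, 2.65 and 1.67 and 1.86, 2.20, 1.20 and 2.76 CPM in the differentiating libraries. The Kat6a-/- difference was -2.66 on the log2 scale in differentiating relative to proliferating cells (SE 0.62, FDR = 0.00682). Grin3a (chr4:49661611-49845847, minus strand) was at 58.2, 52.4, 83.1 and 69.0 CPM in Kat6a+/+ against 114, 80.6, 99.4 and 139 CPM in Kat6a-/- libraries when proliferating and, as given above, lay lower in Kat6a-/- cells when differentiating. Its interaction estimate was -1.43 (SE 0.40, FDR = 0.0198). For Gria4 the difference between conditions was -0.80 (95% interval -1.52 to -0.09) and did not pass (FDR = 0.118), and Gria2 (-1.17, FDR = 0.0778) and Gabrg1 (-1.15, FDR = 0.0502) also missed the threshold.

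**Figure D5:**
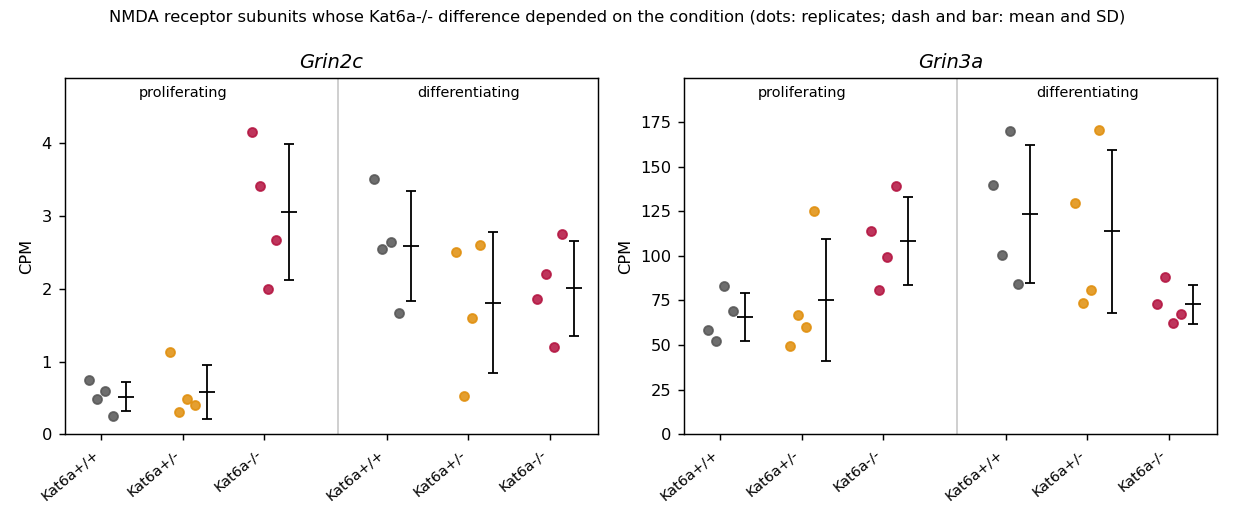
CPM of Grin2c and Grin3a in every library of the 6 groups; dots are replicates 1 to 4 from left to right, and the dash with its bar is the mean and SD. For Grin2c the proliferating Kat6a-/- dots sit above all Kat6a+/+ dots and the differentiating ones overlap them. For Grin3a the Kat6a-/- mean is above the Kat6a+/+ mean when proliferating and below it when differentiating.

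Loss of 1 Kat6a copy gave no call. Comparing Kat6a+/- with Kat6a+/+ cells, limma called 0 of 24 members in proliferating and 0 of 30 in differentiating NSPCs, beside 0.00% of all genes tested in each, and edgeR and DESeq2 also called 0 members. In limma an unadjusted p below 0.05 was seen in 2 members when proliferating (7.43% of all genes) and in 6 when differentiating (14.4% of all genes), while edgeR gave 6 (6.03%) and 4 (3.64%) such members and DESeq2 5 (6.72%) and 6 (4.71%). In proliferating cells the smallest p belonged to Gria4, at 67.3, 75.8, 107 and 80.4 CPM in Kat6a+/+ against 96.5, 141, 106 and 229 CPM in Kat6a+/- libraries. Replicates 1 and 3 of the Kat6a+/- group fell within the Kat6a+/+ range, and replicates 2 and 4 above it (log2 fold change 0.61, SE 0.23, FDR = 0.563). Gabra3 followed, at 1.16, 0.962, 1.70 and 0.899 and 1.69, 4.21, 1.47 and 2.60 CPM (log2 fold change 0.86, SE 0.34, FDR = 0.599). In differentiating cells Grm5 was at 31.2, 28.5, 28.7 and 25.9 CPM in Kat6a+/- libraries, overlapping the Kat6a+/+ range at replicate 4 (log2 fold change 0.35, SE 0.11, FDR = 0.227). Gabrb2 was at 1.04, 0.703, 0.963 and 0.333 CPM in Kat6a+/+ against 2.27, 4.97, 2.43 and 1.80 CPM in Kat6a+/- libraries, which did not overlap (log2 fold change 1.43, SE 0.48, FDR = 0.246).

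Genes that work with the receptors were read from lists of partners. In proliferating Kat6a-/- cells, where 30.0% of all genes tested were called, AMPA receptor auxiliary subunits (TARPs, cornichons and Shisa proteins) were 3 higher and 1 lower of 9 tested. Cnih2, a cornichon that promotes AMPA receptor export and slows channel closing, rose (log2 fold change 1.09, SE 0.16, FDR = 0.000451), Cacng8 rose (log2 fold change 0.73, SE 0.23, FDR = 0.0279) and Cacng4 fell (log2 fold change -0.53, SE 0.16, FDR = 0.0221). Plasma membrane uptake transporters were 3 higher and 0 lower of 6 tested. Slc1a3 (GLAST), a glutamate transporter of glia, was at 649 ± 82.3 and 1347 ± 352 CPM (log2 fold change 0.91, SE 0.19, FDR = 0.00511) and Slc1a2 (GLT-1) at 21.5 ± 3.45 and 119.9 ± 47.1 CPM (log2 fold change 2.36, SE 0.32, FDR = 0.000401). Slc1a2 also stands in the astrocyte list and Slc1a3 in the radial glia list. Of the synthesis and breakdown enzymes 2 of 5 were called, both higher, GABA transaminase Abat (log2 fold change 1.50, SE 0.27, FDR = 0.00224) and Gad1, which makes GABA (log2 fold change 1.22, SE 0.33, FDR = 0.0159). Gad1 also stands in the list of ventral telencephalon and interneuron markers, where it was 1 of the 2 tested.

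Among GABA receptor auxiliary and assembly proteins, 2 higher and 1 lower of 4 tested were called, with Kctd12, an auxiliary subunit of GABAB receptors, at 39.6 ± 2.69 and 71.6 ± 12.3 CPM (log2 fold change 0.83, SE 0.11, FDR = 0.000232). Kainate auxiliary subunits were 1 higher and 0 lower of 2 tested, the higher one being Neto2 (log2 fold change 0.29, SE 0.07, FDR = 0.00649). Postsynaptic scaffolds were 0 higher and 1 lower of 14 tested. Chloride cotransporters were 0 higher and 1 lower of 2 tested, the lower one being Slc12a2 (NKCC1), which loads cells with chloride (log2 fold change -0.49, SE 0.16, FDR = 0.0376), and no vesicular transporter was tested.

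In differentiating Kat6a-/- cells the lists were read from the weighted fit, which called 54.4% of all genes tested. Postsynaptic scaffolds were 3 higher and 7 lower of 15 tested, with Homer2 at 45.1 ± 13.3 CPM in Kat6a+/+ and 11.8 ± 3.48 CPM in Kat6a-/- cells (log2 fold change -2.14, SE 0.24, FDR = 2.69e-05), Shank2 at 24.9 ± 6.45 and 11.3 ± 4.85 CPM (log2 fold change -1.50, SE 0.18, FDR = 3.46e-05) and Shank1 (log2 fold change -0.89, SE 0.18, FDR = 0.00135). AMPA auxiliary subunits were 2 higher and 4 lower of 10 tested, uptake transporters 1 higher and 3 lower of 7 tested, GABA receptor auxiliary and assembly proteins 2 higher and 1 lower of 5 tested, and synthesis and breakdown enzymes 1 higher and 1 lower of 4 tested. Neto1, an auxiliary subunit of kainate receptors, fell from 33.1 ± 13.3 to 10.2 ± 2.85 CPM (log2 fold change -1.69, SE 0.25, FDR = 0.000160) and Neto2 was not called. Glul, the glutamine synthetase of astrocytes, was at 788 ± 127 and 426 ± 58.8 CPM (FDR = 0.000111), and the neuronal glutamate transporter Slc1a1 at 33.7 ± 11.1 and 12.1 ± 1.58 CPM (log2 fold change -1.71, SE 0.25, FDR = 0.000159). The 1 vesicular transporter tested, Slc17a8, was called lower (log2 fold change -0.94, SE 0.32, FDR = 0.0241), and neither chloride cotransporter was called. With equal weights the scaffolds were 1 higher and 3 lower, and AMPA auxiliary subunits and uptake transporters were 0 higher and 1 lower each. Without Kat6a-/- replicate 1, and likewise without replicate 3, the scaffolds were 0 higher and 1 lower, kainate auxiliary subunits 0 and 1, GABA receptor auxiliary and assembly proteins 1 and 1, and the other lists held no call.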

How the data were processed

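RNA from 24 NSPC cultures was sequenced from TruSeq Stranded mRNA libraries, and the authors aligned the reads to mm39 with Rsubread and counted them per gene with featureCounts and a RefSeq annotation. The deposited values are raw counts per gene. Software versions and the strand setting of the counting are not given in the sources used here. Every column of per-sample values in the files was used. Genes were restricted to the 21030 protein-coding ones, without Y-linked genes and Xist, filtered with filterByExpr (minimum count 10) and scaled with TMM factors. CPM refer to TMM-scaled library totals and RPKM divide them by the gene length in kb that the files give. After the study's methods, limma-voom was applied to the proliferating libraries, treating litter as a random effect (estimated correlation within litters 0.287), and limma-trend was applied to the differentiating libraries on log2 CPM (prior count 2) with array weights, each over its 12 libraries with robust variance moderation. A joint limma-voom fit of all 24 libraries gave the contrast of conditions and the interaction. It treated litter as a random effect (estimated correlation 0.00365) and held no term for the embryos with a library in both conditions. FDRs are Benjamini-Hochberg adjusted over all genes tested (12276, 13339 and 13590), with a threshold of 0.05, and all tests are two-sided. R 4.3.3, limma 3.58.1, edgeR 4.0.16 and DESeq2 1.42.0 were used, and the fitting scripts were tested on simulated data.

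The members, partner lists, marker lists and tests were chosen with earlier results of these data known. Values in every library are given for up to 12 members called in each condition between Kat6a-/- and Kat6a+/+ cells, smallest FDR first, for the 2 members of smallest p between Kat6a+/- and Kat6a+/+ cells, and for called interactions. Of each partner list, up to 3 called genes of largest fold change with a mean log2 CPM above 0 are named. Some genes are not reported here by name, though they stay in the counts. Alternatives were edgeR, DESeq2, other scaling, no filter, other handling of litter, weights and replicate numbers, and each library left out in turn. Replicates of a group differed by more than counting noise (lowest chi-square per degree of freedom 5.81). Counting intervals cover counting error only. Gene coordinates come from GENCODE vM39 (GRCm39), and promoter windows from a RefSeq table (GRCm38.p6).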

Additional observations from a re-analysis of the deposited data

Results flagged for a closer look

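In 78 groups of 4 libraries, the highest or lowest library was compared with the other 3, and 8 stood apart by Dixon's criterion, which chance alone does in about 1 in 20 groups. In proliferating Kat6a+/- cells, replicate 4 was high for Gria1, at 1.40 CPM against 0.0805 to 0.200 CPM in the other 3, and for Grm4, at 2.60 against 0.501 to 0.644 CPM. Replicate 1 of the same group was high for Grid1, at 27.5 against 23.4 to 24.1 CPM, and low for Gabrg1, at 36.1 against 50.3 to 53.2 CPM. In proliferating Kat6a-/- cells, replicate 1 was high for Grm5, at 467 against 372 to 387 CPM, and replicate 4 was high for Grin2b, at 6.06 against 2.75 to 3.10 CPM. In differentiating cells, Kat6a+/- replicate 4 was high for Gria3, at 176 against 99.9 to 106 CPM, and Kat6a+/+ replicate 4 was high for Grin2a, at 7.37 against 1.70 to 2.33 CPM.

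The difference between Kat6a-/- and Kat6a+/+ cells itself differed between the conditions for Grin2c, by -2.66 on the log2 scale (differentiating minus proliferating), and for Grin3a, by -1.43, both by the interaction term of the joint limma fit. Grin2c passed the filter in proliferating cells only through its Kat6a-/- libraries, and its counts there were low (46 in all Kat6a+/+ and 106 in all Kat6a-/- libraries).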

How the results depend on the processing

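In proliferating Kat6a-/- against Kat6a+/+ cells, 237 of 260 recomputed values of called members kept their call. The count of members called (main count 13) ranged from 9 (litter as a fixed term, 1936 of 12276 genes) to 15 (as with DESeq2, 3890 of 12271) over the 8 other settings. With 1 library left out the count ranged from 10 (without Kat6a+/+ replicate 1, 2317 of 12393) to 16 (without Kat6a+/- replicate 4, 3985 of 12364). In differentiating cells (main count 21) it was 12 with DESeq2, 11 with edgeR, 2 with litter as a fixed term, 9 without quality weights and 1 to 23 with 1 library left out, where 118 of 420 values lost their call and that of Grm4 reversed, its estimates ranging from -1.43 to 0.20 with 1 library left out. Against Kat6a+/- cells the differentiating count (main 10) was 4 with DESeq2 (2621 of 13336 genes), 2 with edgeR (1656 of 13339) and 1 with litter as a fixed term (386 of 13339). It was 4 without the filter (3031 of 17252), 2 without quality weights (1616 of 13339) and 0 to 14 with 1 library left out. The 14 came without Kat6a-/- replicate 2 (7397 of 13460). The proliferating count (main 9) was 5 with edgeR (951 of 12276) and 5 to 10 with 1 library left out. The 10 came without Kat6a+/- replicate 3 (1475 of 12385) or replicate 4 (2200 of 12364). The interaction (main 2) gave 6 with DESeq2 (2768 of 13587 genes), 4 with edgeR (2233 of 13590) and 4 with library totals (2400 of 13590). It gave 2 to 6 with 1 library left out. The contrast of conditions gave 18 to 21, and Kat6a+/- against Kat6a+/+ cells gave 0 throughout. Beyond fewer samples or genes tested, the causes were not tested.

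Replicate numbers were not taken to pair the genotypes (correlations of same-numbered deviations from -0.483 to 0.545), while between conditions 5 of 12 same-numbered pairs share an embryo (correlations from -0.138 to 0.189). With the replicate number as a block the counts between Kat6a-/- and Kat6a+/+ cells were 14 (proliferating, 3604 of 12276 genes) and 21 (differentiating, 7211 of 13339). Against Kat6a+/- cells they were 8 (1625 of 12276) and 9 (4203 of 13339). The block gave 18 between conditions (9786 of 13590 genes), where Gabbr2 (FDR = 0.0571) and Gabrb1 (FDR = 0.0599) lost the call. It gave 2 for the interaction (1791 of 13590) and 0 for Kat6a+/-. Leaving out a library in the joint fit kept the within-litter correlation of all libraries. At a few CPM, as for Gria1, Grm4 and Grin2c in proliferating cells, depth limits the precision, and 17 members did not pass the filter in either condition.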
